A study of Homo sapiens with 6 samples.

Results

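The genes followed here in MV411 leukaemia cells belong to the FLT3 to STAT5 pathway: STAT5A and STAT5B, the feedback inhibitors CISH, SOCS1, SOCS2 and SOCS3, the kinases PIM1, PIM2 and PIM3, and the cytokine gene OSM. They were taken by symbol, and all 10 were found among the 20036 genes of the deposited table. MV411, an established line from a human monocytic acute myeloid leukaemia, has a rearranged KMT2A gene and, in FLT3, an internal tandem duplication. Cells labelled wild type received corilagin, an ellagitannin found in plants, or the solvent DMSO as the control for 48 h, with 3 RNA-seq libraries per group. The sources used here do not give the corilagin dose. Separate cultures are not mentioned in the labels, so the p-values reflect the spread between libraries alone, which may be technical.

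STAT5A and STAT5B are closely related transcription factors that kinases switch on by tyrosine phosphorylation, after which they pair, enter the nucleus and bind DNA at sites of the form TTCNNNGAA. Receptors for blood cell growth factors reach STAT5 through JAK kinases, and FLT3 with an internal tandem duplication activates STAT5 without its ligand. CISH, the SOCS genes, the PIM kinases and OSM are commonly read as its transcriptional output, although other pathways also drive several of them.

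In the libraries as deposited OSM, PIM3 and SOCS3 were lower in corilagin, and no member passed the test as higher. Of all genes tested, 13.5% were called lower and 11.9% higher. The calls depended on the processing. With each library's trend along transcript GC content taken out, SOCS3 was no longer called. PIM1, SOCS1 and CISH then passed as higher, as did 21.4% of genes. Mean OSM was 0.644 times, PIM3 0.732 times and SOCS3 0.768 times the DMSO level. CISH, often the most direct STAT5 readout of the set, stood at 0.988 times the DMSO level. PIM1 was above DMSO in every library, as were 25.0% of tested genes, without passing the test, at 1.19 times the mean. These were bulk libraries, so fewer cells of a type and less RNA per cell cannot be told apart.

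The promoter of CISH, a classic STAT5 target, is shown because it holds several STAT5-type motifs. RefSeq promoter windows (GRCh38.p14, 250 bases before to 50 after a start) were matched for 8 of the 10 members, 11 windows in all. SOCS2 and OSM were not matched. The motif searched was TTCNNNGAA, which reads the same on both strands. Below, capitals mark its matches in the CISH promoter, chr3:50611832-50612024, minus strand, GRCh38.p14.
CISH: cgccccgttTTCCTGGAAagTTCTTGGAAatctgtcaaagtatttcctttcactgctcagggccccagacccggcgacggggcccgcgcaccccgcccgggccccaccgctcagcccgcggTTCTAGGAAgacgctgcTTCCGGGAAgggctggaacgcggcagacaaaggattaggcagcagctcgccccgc
The 4 matches do not overlap, and they begin 241, 230, 129 and 112 bases before the RefSeq start. At least 1 match was present in 7.66% of the 35116 windows of this length, and at least 4 matches in 7 windows (0.0199%). In the windows of SOCS1, SOCS3, PIM1, PIM2, PIM3, STAT5A and STAT5B these letters did not occur. A match describes letters in a window and says nothing of binding in these cells.

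Expression was deposited as FPKM, that is, fragments scaled by gene length in kilobases and by the size of the library. The fragments recovered from it gave a depth of 18299789 to 21640689 fragments per corilagin library and 17776956 to 20063657 per DMSO library. DMSO replicate 3 stood apart from DMSO replicates 1 and 2. Its counts differed from those of DMSO replicates 1 and 2 with a chi-square of 88.7 and 70.6 per gene, against 2.44 to 4.53 for the other pairs within a group. Across 9859 genes its difference from the other DMSO libraries followed the GC content of the transcript (Spearman rho = -0.838, across genes, which are not independent). The difference between corilagin and DMSO replicate 3 did not (rho = -0.00486). Summed FPKM was 239068 in DMSO replicate 3, 233342 to 236861 in corilagin, and 266660 and 260759 in DMSO replicates 1 and 2. Which DMSO libraries are typical is not known. Each member is therefore also given after GC removal (each library's GC trend taken out), and against DMSO replicate 3 alone. The fit against DMSO replicate 3 alone rests on 1 DMSO library, assumed to vary like the corilagin libraries. Removing the trend also takes out any true difference that follows GC content. Of 12 monocytic leukaemia markers 11 averaged at least 1 FPKM, and CD14 was the one below. Their summed level was 556 FPKM in all corilagin libraries and 495 to 537 FPKM in DMSO. FLT3 alone gave 307, 307 and 318 FPKM of this in corilagin and 186, 203 and 261 FPKM in DMSO. Of the 11 tested, 3 were called higher and 2 lower, beside 11.9% and 13.5% of all tested genes. Without overlap 4 lay above and 4 below DMSO, as did 25.0% and 23.3% of genes. The sum therefore does not describe every marker. The summed T cell markers were 0.0916 to 0.114 FPKM in corilagin and 0.0133 to 0.0283 FPKM in DMSO, and 4 of 5 erythroid and 4 of 5 fibroblast markers were at 0 throughout. Of 4 B cell markers MS4A1 was at 0, and the sum was 5.13 to 6.25 FPKM in corilagin and 5.53 to 6.75 FPKM in DMSO. Of 5 epithelial markers EPCAM, KRT19 and CDH1 were at 0, and the sum was 3.44 to 4.04 FPKM in corilagin and 3.91 to 5.12 FPKM in DMSO.

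**Figure D1:**
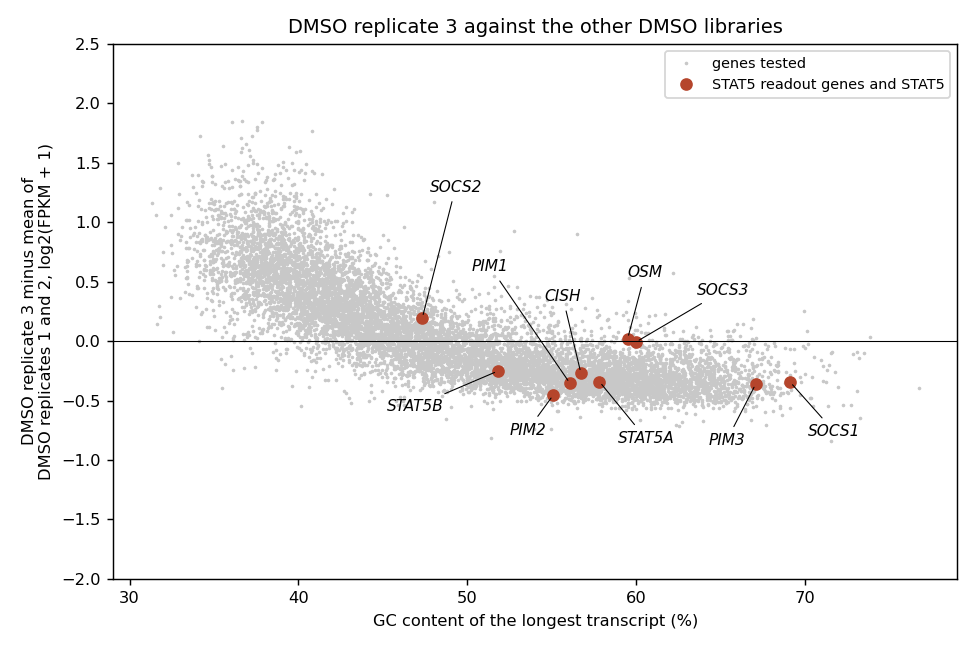
Log2(FPKM + 1) in DMSO replicate 3 minus the mean of DMSO replicates 1 and 2 (y axis) against transcript GC content in percent (x axis), with each tested gene as a grey point and the 10 members in red. Low-GC genes lie above 0 and high-GC genes below. OSM (0.02) and SOCS3 (-0.01) lie near 0, SOCS2 at 0.19 and the other members at -0.25 to -0.45.

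STAT5A (ENSG00000126561) and STAT5B (ENSG00000173757) lie side by side on chromosome 17, at chr17:42287547-42311943 on the plus strand and chr17:42199168-42276707 on the minus strand (GRCh38, GENCODE release 29). STAT5A had 7.58, 7.35 and 7.86 FPKM in corilagin replicates 1 to 3, and 9.54, 9.47 and 7.29 FPKM in DMSO replicates 1 to 3. STAT5B had 7.04, 6.80 and 6.68 FPKM in corilagin, and 8.53, 8.56 and 7.02 FPKM in DMSO. For both genes DMSO replicates 1 and 2 were high and DMSO replicate 3 lay at or near the corilagin values, so the groups overlapped.

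Neither gene passed the test. The log2 difference was -0.18 for STAT5A (SE 0.113, 95% interval -0.44 to 0.09, limma adjusted p = 0.248) and -0.20 for STAT5B (SE 0.0971, interval -0.43 to 0.03, limma adjusted p = 0.144). Without DMSO replicate 3 both passed as lower, at -0.29 for STAT5A (limma adjusted p = 0.000338) and -0.28 for STAT5B (0.000392). In that fit 36.5% of all genes were called lower. After GC removal the values were -0.0025 for STAT5A (limma adjusted p = 0.972) and -0.11 for STAT5B (0.101). Against DMSO replicate 3 alone they were 0.05 for STAT5A (limma adjusted p = 0.601) and -0.03 for STAT5B (0.741), and neither passed in either fit. STAT5A made up 52.6% ± 1.23 of the summed STAT5 FPKM in corilagin and 52.1% ± 0.987 in DMSO (SD, n = 3 each, exact 2-sided permutation p = 0.6). The size of this share depends on the gene lengths behind the FPKM, which imply 6385 bases for STAT5A and 12110 for STAT5B. GENCODE exons cover 5754 and 6447 bases of the 2 genes. Of 75-base windows of the longest transcript, 421 of 4227 in STAT5A also occur in STAT5B. How the paired reads from such stretches were assigned was not tested.

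Among the feedback inhibitors, SOCS3 fell, and CISH, SOCS1 and SOCS2 did not pass the test. CISH and the SOCS proteins bind phosphorylated receptors or JAKs, and through their SOCS box they recruit a ubiquitin ligase. CISH (ENSG00000114737, chr3:50606490-50611831, minus strand) binds receptors at the sites that STAT5 uses. It had 9.18, 8.37 and 8.73 FPKM in corilagin, and 9.24, 9.68 and 7.68 FPKM in DMSO. The corilagin values lay inside the DMSO range, with DMSO replicate 3 the lowest library of all. The log2 difference was -0.01 (SE 0.103, 95% interval -0.25 to 0.23, limma adjusted p = 0.941). After GC removal it was 0.15 and passed as higher (limma adjusted p = 0.0471), a call lost when a replicate block was added (0.0881). Against DMSO replicate 3 alone it was 0.17 (limma adjusted p = 0.0838), and with equal sums per library 0.10 (limma adjusted p = 0.342). The direction of CISH thus changed with the scaling. CISH shares 218 exon bases with MAPKAPK3 on the opposite strand, and the protocols do not state that strand was kept.

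SOCS1 (ENSG00000185338, chr16:11254405-11256200, minus strand), a direct inhibitor of JAK kinase activity, was the lowest member. It had 2.33, 2.12 and 2.60 FPKM in corilagin, and 2.22, 2.65 and 1.70 FPKM in DMSO, from 54 to 95 fragments per library. The groups overlapped, and DMSO replicates 2 and 3 were its highest and lowest libraries. SOCS1 differed by 0.08 on the log2 scale (SE 0.124, 95% interval -0.21 to 0.37, limma adjusted p = 0.636). It was 0.35 after GC removal (limma adjusted p = 0.0134) and 0.31 against DMSO replicate 3 alone (limma adjusted p = 0.0343), called as higher in both. Quantile normalization turned it to -0.03. SOCS1 has the highest transcript GC content of the set, 69.1%.

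SOCS2 (ENSG00000120833, chr12:93569814-93583487, plus strand) restrains growth hormone signalling, in which STAT5 also acts. It had 4.74, 4.81 and 5.04 FPKM in corilagin, and 4.65, 4.30 and 5.26 FPKM in DMSO. Every corilagin value lay within the DMSO range. SOCS2 differed by 0.03 on the log2 scale (SE 0.0908, 95% interval -0.18 to 0.25, limma adjusted p = 0.776). It was 0.02 after GC removal (limma adjusted p = 0.811) and -0.10 against DMSO replicate 3 alone (0.352), and its sign also turned under quantile normalization (-0.06) and median-of-ratios scaling (-0.01). SOCS2 shares 277 exon bases with SOCS2-AS1 on the opposite strand. Reads from those bases cannot be told apart unless strand was kept, which the protocols do not state.

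SOCS3 (ENSG00000184557, chr17:78356778-78360077, minus strand) is best known as the inhibitor of gp130 receptors and of the G-CSF receptor, and STAT3 also drives it. It had 3.63, 3.42 and 3.28 FPKM in corilagin, and 4.56, 4.43 and 4.46 FPKM in DMSO. The groups did not overlap, and DMSO replicate 3 lay between the other DMSO libraries. The mean was 3.44 ± 0.179 FPKM in corilagin and 4.48 ± 0.0666 FPKM in DMSO (SD, n = 3 each), from 164 to 245 fragments per library. The log2 difference was -0.30 (SE 0.0762, 95% interval -0.48 to -0.12, limma adjusted p = 0.0309).

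That call was lost with the GC trend removed, at -0.11 (limma adjusted p = 0.346), with equal sums per library (0.0716) and with no filter on low values (0.0537). It was also lost without any 1 library other than DMSO replicate 3, with limma adjusted p from 0.0937 to 0.134. Against DMSO replicate 3 alone it was -0.30 (limma adjusted p = 0.0163). SOCS3 took 17.7% ± 0.919 of the summed FPKM of CISH and SOCS1 to SOCS3 in corilagin and 22.2% ± 1.17 in DMSO. CISH took 45.1% ± 0.918 in corilagin and 43.6% ± 3.04 in DMSO (SD, n = 3 each), a difference of 1.49 percentage points (exact 2-sided permutation p = 0.6).

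The PIM kinases differed among themselves: PIM3 fell, PIM1 lay above DMSO without passing the test, and PIM2 overlapped between groups. All PIM1 values in corilagin were above all those in DMSO, as for 25.0% of tested genes. PIM kinases are serine/threonine kinases that are active as soon as they are made, so their level is set largely by transcription and turnover, and they favour survival and translation. PIM1 (ENSG00000137193, chr6:37170203-37175426, plus strand) was the most highly expressed member, with a mean FPKM above that of 94.1% of tested genes. It had 66.1, 65.8 and 64.7 FPKM in corilagin, and 63.6, 55.9 and 46.4 FPKM in DMSO. The corilagin libraries lay close together and just above DMSO replicate 1, while the DMSO libraries were spread out. The mean was 65.5 ± 0.747 FPKM in corilagin and 55.3 ± 8.63 FPKM in DMSO (SD, n = 3 each). PIM1 differed by 0.25 on the log2 scale (SE 0.117, 95% interval -0.02 to 0.53, limma adjusted p = 0.133).

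PIM1 did pass as higher in 6 of 18 alternatives. It reached 0.40 after GC removal (limma adjusted p = 0.00126), 0.49 against DMSO replicate 3 alone (2.4e-05), 0.37 with equal sums per library (0.0254), 0.35 with quantile normalization (0.0408) and 0.13 without DMSO replicate 3 (0.0307). The remaining one joined a replicate block to the GC removal. PIM1 kept its sign in all 18, and the limma adjusted p ran from 2.4e-05 to 0.276.

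PIM2 (ENSG00000102096, chrX:48913182-48919024, minus strand) had 12.0, 13.5 and 12.3 FPKM in corilagin, and 13.9, 12.9 and 9.47 FPKM in DMSO. DMSO replicates 1 and 3 were its highest and lowest libraries. PIM2 differed by 0.07 on the log2 scale (SE 0.140, 95% interval -0.26 to 0.40, limma adjusted p = 0.708). It was 0.21 after GC removal (limma adjusted p = 0.0573), 0.37 against DMSO replicate 3 alone (0.00236) and -0.08 without that library (0.221).

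PIM3 (ENSG00000198355, chr22:49960513-49964080, plus strand) had 18.4, 19.3 and 17.9 FPKM in corilagin, and 26.8, 28.1 and 21.1 FPKM in DMSO. All corilagin libraries were below all DMSO libraries, and DMSO replicate 3 was the closest to them. The mean was 18.5 ± 0.729 FPKM in corilagin and 25.3 ± 3.70 FPKM in DMSO (SD, n = 3 each). The log2 difference was -0.42 (SE 0.116, 95% interval -0.69 to -0.15, limma adjusted p = 0.0393). It shrank to -0.16 after GC removal (limma adjusted p = 0.0269) and to -0.18 against DMSO replicate 3 alone (0.0350), and passed as lower in both. The call was lost with no filter on low values (limma adjusted p = 0.0598) and without any 1 library other than DMSO replicate 3, with p from 0.117 to 0.148.

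Within a library, PIM1 made up 68.5%, 66.7% and 68.2% of the summed PIM FPKM in corilagin, and 61.0%, 57.7% and 60.3% in DMSO. The groups did not overlap, and DMSO replicate 3 lay between the other DMSO libraries. The share averaged 67.8% ± 0.949 in corilagin and 59.7% ± 1.74 in DMSO (SD, n = 3 each), 8.15 percentage points apart. The exact 2-sided permutation p was 0.1, the smallest that 3 against 3 libraries allow. With the GC trend removed the difference was 6.99 points. PIM3 took 19.2% ± 0.380 in corilagin and 27.4% ± 1.67 in DMSO, and PIM2 13.0% in each group. The summed PIM level was 96.6 ± 1.90 FPKM in corilagin and 92.7 ± 14.1 FPKM in DMSO. No 75-base window is shared between the longest PIM transcripts.

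**Figure D2:**
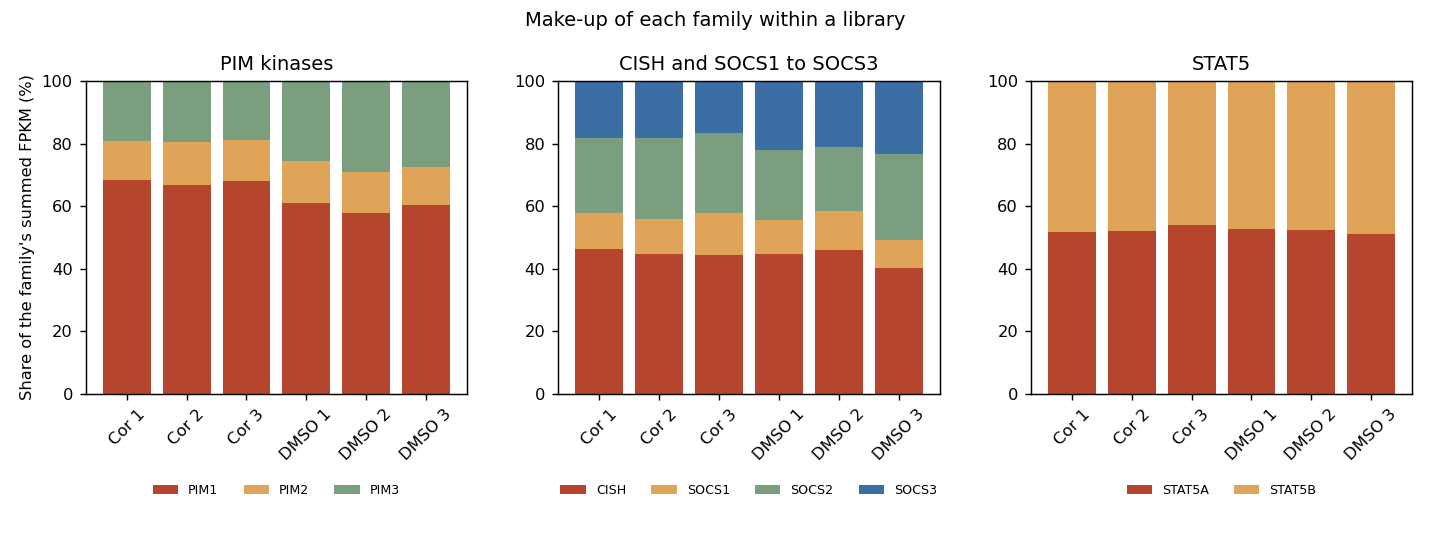
Share of the family's summed FPKM (percent, y axis) taken by each gene in each of the 6 libraries (x axis; Cor, corilagin), for the PIM kinases, for CISH with SOCS1 to SOCS3, and for STAT5A with STAT5B. The PIM1 share is 66.7% to 68.5% in corilagin and 57.7% to 61.0% in DMSO, and the STAT5A share is near 52% in both groups.

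OSM showed the largest log2 difference of the set in the libraries as deposited. It encodes oncostatin M, a cytokine of the IL-6 family that signals through gp130 and that STAT5 induces in blood cells. The gene (ENSG00000099985) lies at chr22:30262829-30266840 on the minus strand. It had 4.57, 4.84 and 5.58 FPKM in corilagin, and 7.33, 8.12 and 7.84 FPKM in DMSO. All corilagin libraries were below all DMSO libraries, and DMSO replicate 3 lay between the other DMSO libraries. The mean was 4.99 ± 0.525 FPKM in corilagin and 7.76 ± 0.401 FPKM in DMSO (SD, n = 3 each), from 201 to 346 fragments per library.

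The log2 difference of OSM was -0.55 (SE 0.0950, 95% interval -0.77 to -0.33, limma adjusted p = 0.0114). Of the tested genes, 4.87% had a lower one. It was -0.36 after GC removal (limma adjusted p = 0.0338) and -0.56 against DMSO replicate 3 alone (0.0010). OSM was called lower in 15 of 18 alternatives. The exceptions left out corilagin replicate 1 (limma adjusted p = 0.0706), corilagin replicate 2 (0.0692) or DMSO replicate 2 (0.0588). For OSM, SOCS3, PIM3 and PIM1 alone, the exact 2-sided permutation p was 0.1, the smallest possible here.

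**Figure D3:**
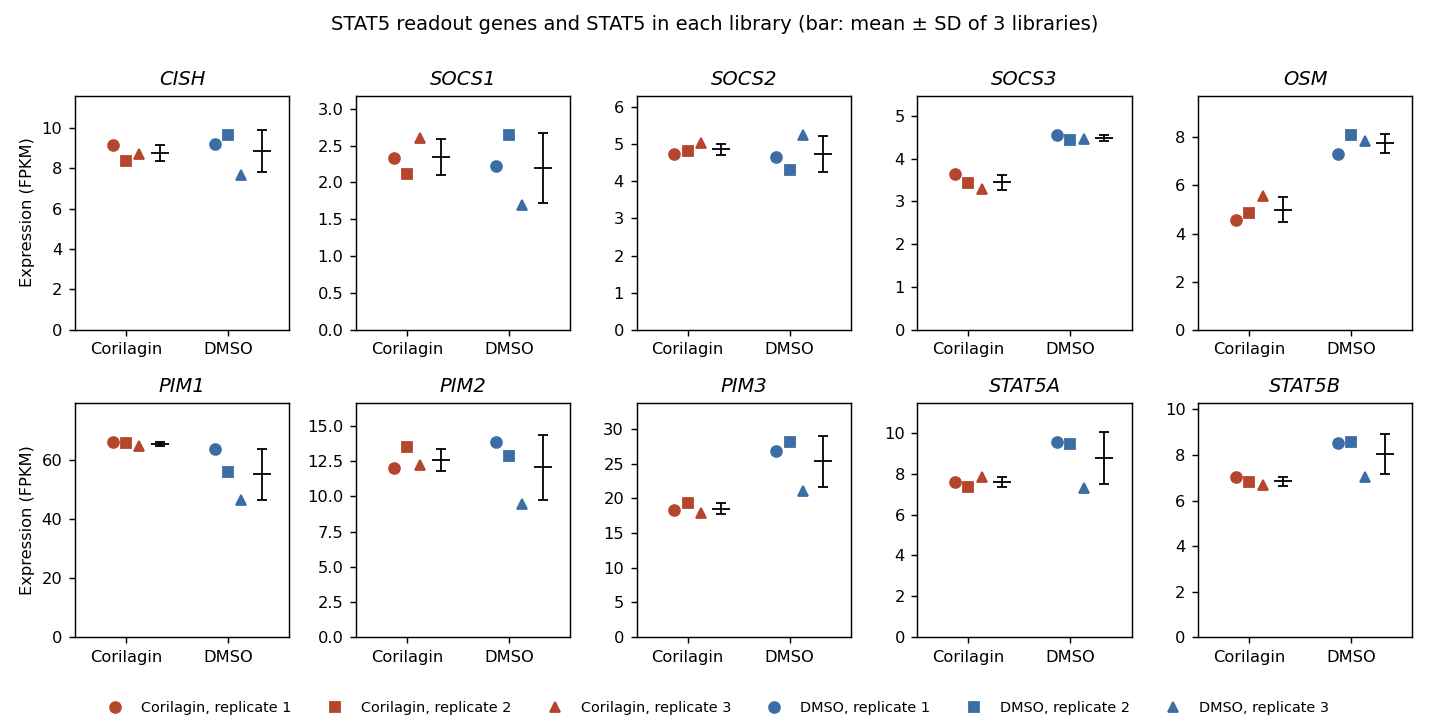
FPKM (y axis, from 0, a scale for each gene) of the 10 members in each corilagin and DMSO library (points) with the mean ± SD of 3 libraries (bars). SOCS3, OSM and PIM3 are lower in all corilagin libraries and PIM1 is higher. DMSO replicate 3 lies below the other DMSO libraries in CISH, SOCS1, PIM1, PIM2, PIM3, STAT5A and STAT5B.

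Over the set, 3 of 10 members were lower and 0 higher, where 13.5% of the 9868 genes tested were called lower and 11.9% higher. At an unadjusted p under 0.05 limma also gave 3 lower and 0 higher members. Limma-voom on the recovered fragments gave the same counts, against 13.4% of genes called lower and 12.5% called higher. All 10 members passed the filter on low values. Their median log2 difference was -0.09, beside 0.03 for all genes tested. PIM1 alone lay above DMSO without overlap, as did 25.0% of tested genes, and OSM, SOCS3 and PIM3 below, as did 23.3%.

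With the GC trend removed, PIM1, SOCS1 and CISH passed as higher (21.4% of genes did) and OSM and PIM3 as lower (23.0%), and the median was 0.01. Against DMSO replicate 3 alone, PIM1, PIM2 and SOCS1 passed as higher (19.5% of genes) and OSM, SOCS3 and PIM3 as lower (18.4%). Without DMSO replicate 3, PIM1 passed as higher (40.8% of genes) and OSM, PIM3, SOCS3, STAT5A and STAT5B as lower (36.5%). OSM and PIM3 passed as lower in each of these 3 fits and in that of all libraries as deposited. After GC removal 4 members lay above DMSO without overlap and 3 below, as did 27.3% and 28.9% of genes. Against DMSO replicate 3 alone 5 lay above and 4 below (41.1% and 38.3% of genes), and without that library 2 lay above and 6 below (44.1% and 40.3%). The order of the mean levels was the same in both groups, PIM1, PIM3, PIM2, CISH, STAT5A, STAT5B, OSM, SOCS2, SOCS3 and SOCS1. It depends on the gene lengths behind the FPKM, which the values imply as 12110 bases for STAT5B and 2528 for CISH. GENCODE exons cover 6447 and 5112 bases of these genes, so other lengths would place them elsewhere. In DMSO CISH, STAT5A, STAT5B and OSM lay within their spread of each other (8.86 ± 1.05, 8.77 ± 1.28, 8.04 ± 0.883 and 7.76 ± 0.401 FPKM), as did SOCS2 and SOCS3 (4.74 ± 0.487 and 4.48 ± 0.0666 FPKM). In corilagin OSM and SOCS2 did (4.99 ± 0.525 and 4.87 ± 0.153 FPKM).

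**Figure D4:**
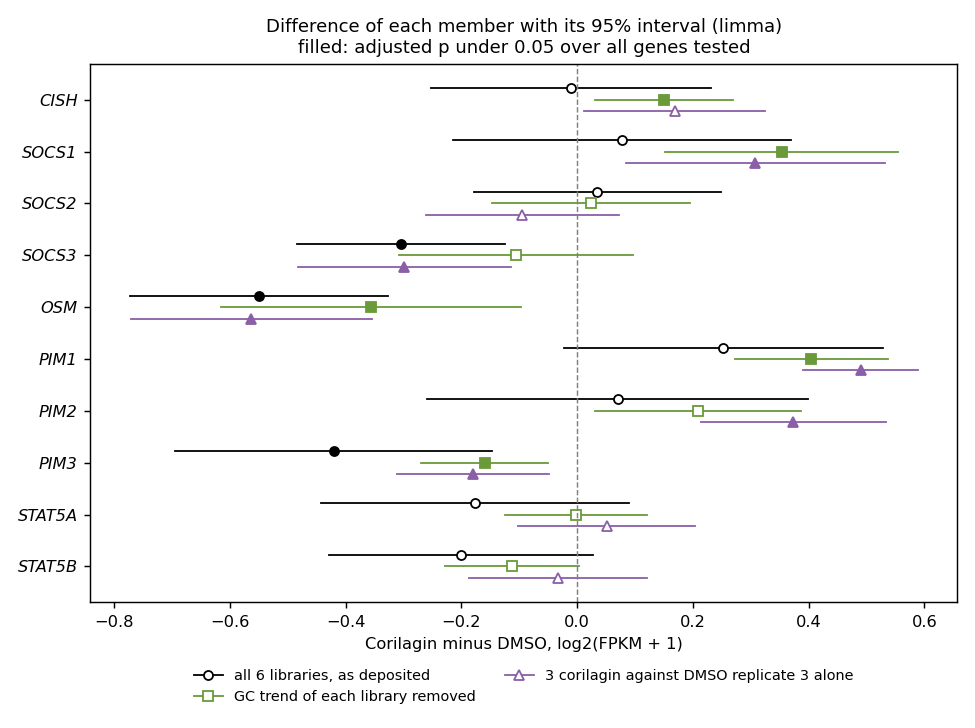
Corilagin minus DMSO in log2(FPKM + 1) with its 95% limma interval (x axis) for each member (y axis), from all 6 libraries as deposited (black), with the GC trend of each library removed (green), and against DMSO replicate 3 alone (purple); filled symbols have an adjusted p under 0.05. OSM and PIM3 are filled below 0 in all 3 fits, while PIM1 is at 0.25, 0.40 and 0.49 and filled in the green and purple fits.

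The lists that follow are read beside the 11.9% of tested genes that were higher and the 13.5% that were lower, and no list was tested as a whole. Calls after GC removal are read beside 21.4% higher and 23.0% lower. Of 22 receptor genes 15 were tested: IL2RB, FLT3, CSF2RA and IL3RA rose, CSF3R fell, and 10 did not pass (median log2 difference 0.15, or 0.22 after GC removal). With the GC trend removed 7 receptor genes passed as higher and 2 as lower. FLT3, the receptor that carries the duplication in this line, had 311 ± 6.30 FPKM in corilagin and 217 ± 39.4 FPKM in DMSO (SD, n = 3 each, log2 difference 0.53, limma adjusted p = 0.0273). It was 0.33 after GC removal (limma adjusted p = 0.00316) and 0.25 against DMSO replicate 3 alone (0.00104), and the call was lost with no filter on low values (0.0504). CSF2RA, the GM-CSF receptor alpha chain, had 11.6 ± 0.566 FPKM in corilagin and 8.28 ± 0.499 FPKM in DMSO (0.45, limma adjusted p = 0.0141). IL2RB, the IL-2 receptor beta chain, had 2.88 ± 0.175 FPKM in corilagin and 1.56 ± 0.417 FPKM in DMSO (0.61, limma adjusted p = 0.0187). IL3RA, the IL-3 receptor alpha chain, had 29.7 ± 2.16 FPKM in corilagin and 22.6 ± 2.45 FPKM in DMSO (0.38, limma adjusted p = 0.0386). It was named after its value was seen, and its call was lost with median-of-ratios scaling (limma adjusted p = 0.0606) and with no filter (0.0554). CSF3R, the G-CSF receptor, had 5.39 ± 0.0983 FPKM in corilagin and 7.57 ± 0.475 FPKM in DMSO (-0.42, limma adjusted p = 0.0151).

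Of the chains that gp130 cytokines need, IL6ST, which encodes gp130 itself, had 2.12, 2.20 and 2.44 FPKM in corilagin, and 0.641, 0.579 and 2.17 FPKM in DMSO (log2 difference 0.69, limma adjusted p = 0.0791). DMSO replicate 3 lay at the corilagin level. The difference was 0.04 against that library alone (limma adjusted p = 0.781), 1.02 without it (2.7e-07) and 0.22 after GC removal (0.0801), and a replicate block called it higher (0.0379). OSMR, the oncostatin M receptor chain, was under the filter with 4 to 27 fragments per library, and LIFR was at 0 in all libraries. IL2RG, the common gamma chain, was under the filter with 4 to 11 fragments. Of 7 other gp130 ligands only CNTF was tested (0.02, limma adjusted p = 0.937), and LIF had 0 to 2 fragments per library.

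Of 8 JAK and other STAT genes 6 were tested: JAK1 and STAT2 rose, 0 fell, and 4 did not pass (median 0.29, or 0.32 after GC removal). None fell by limma at an unadjusted p under 0.05 (0) or by limma-voom (0). With the GC trend removed 4 passed as higher and 0 as lower. JAK1, a kinase shared by many cytokine receptors, had 13.4 ± 0.134 FPKM in corilagin and 9.21 ± 1.08 FPKM in DMSO (0.50, limma adjusted p = 0.0147). STAT2, which acts in the interferon response, had 11.1 ± 0.468 FPKM in corilagin and 8.51 ± 0.377 FPKM in DMSO (0.34, limma adjusted p = 0.0262), a call lost with quantile normalization (0.0641). JAK2, the kinase of the GM-CSF, IL-3 and erythropoietin receptors, averaged 4.67 FPKM in corilagin and 3.24 FPKM in DMSO, where replicates 1 to 3 had 2.26, 2.09 and 5.35 FPKM (0.50, limma adjusted p = 0.168). STAT3, the main effector of gp130, averaged 11.7 FPKM in corilagin and 9.70 FPKM in DMSO (0.25, limma adjusted p = 0.105), and passed as higher after GC removal (0.31, limma adjusted p = 0.00489).

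Inhibitors outside the set were read in the same way. Of SOCS4 to SOCS7, 0 of 4 passed in either direction (limma; at an unadjusted p under 0.05 1 was higher and 1 lower, and limma-voom called 0), with a median of 0.37. After GC removal the median was -0.07, SOCS4 passed as higher and SOCS7 as lower. Of 6 genes of the ligase that SOCS boxes recruit, ELOB, the elongin B subunit, fell and 5 did not pass. After GC removal 0 of them were higher and 2 lower. ELOB had 12.8 ± 0.276 FPKM in corilagin and 20.3 ± 3.73 FPKM in DMSO (-0.61, limma adjusted p = 0.0226). Of 13 further negative regulators (phosphatases, PIAS genes and adaptors) USP18 rose and 12 did not pass (median 0.06). At an unadjusted p under 0.05 limma gave 4 higher and 0 lower, beside 2396 and 2068 of all 9868 genes. After GC removal 3 were higher and 0 lower (21.4% and 23.0% of genes). Without overlap 5 lay above DMSO and 0 below (25.0% and 23.3% of genes). USP18, which restrains interferon receptors, had 2.89 ± 0.158 FPKM in corilagin and 1.69 ± 0.187 FPKM in DMSO (0.53, limma adjusted p = 0.00876). PTPN6, the phosphatase SHP-1, averaged 71.9 FPKM in corilagin and 87.2 FPKM in DMSO (-0.26, limma adjusted p = 0.125).

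Of 18 other genes described as STAT5 targets, 10 were tested: CDKN1A rose, MYC, CCND3, CDC25A and LTB fell, and 5 did not pass (median -0.09, or -0.10 after GC removal). Limma-voom called 1 higher and 3 lower, without LTB, and so did limma after GC removal. CDKN1A, the cyclin-dependent kinase inhibitor p21, had 38.1 ± 2.22 FPKM in corilagin and 5.17 ± 1.44 FPKM in DMSO (SD, n = 3 each, log2 difference 2.69, limma adjusted p = 0.00101). MYC, a growth-promoting transcription factor, had 26.1 ± 1.93 FPKM in corilagin and 65.1 ± 5.44 FPKM in DMSO (-1.28, limma adjusted p = 0.00117). CCND3, a D-type cyclin, had 28.6 ± 0.951 FPKM in corilagin and 40.5 ± 7.17 FPKM in DMSO (-0.47, limma adjusted p = 0.0421). Its call was lost with no filter (0.0672), and it was -0.32 after GC removal and -0.17 against DMSO replicate 3 alone, called as lower in both. CDC25A, a phosphatase that activates cell-cycle kinases, had 23.8 ± 1.51 FPKM in corilagin and 32.1 ± 2.91 FPKM in DMSO (-0.41, limma adjusted p = 0.0252). LTB, the cytokine lymphotoxin beta, had 2.46 ± 0.273 FPKM in corilagin and 3.47 ± 0.511 FPKM in DMSO (-0.37, limma adjusted p = 0.0498). It was named after its value was seen. LTB did not pass with a pseudocount of 0.1 or 0.5, without the filter, with equal sums, by limma-voom or after GC removal (-0.14), with limma adjusted p from 0.0508 to 0.406. CDKN1A and MYC, and most genes of this list, answer to other regulators too.

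Of 14 genes whose proteins PIM kinases are reported to phosphorylate, CDKN1A and FOXO3 rose, MYC, CDC25A and CXCR4 fell, and 9 did not pass (median -0.18, or -0.01 after GC removal). With the GC trend removed 4 of these passed as higher and 3 as lower. FOXO3, a forkhead transcription factor, had 8.16 ± 0.303 FPKM in corilagin and 4.93 ± 0.585 FPKM in DMSO (0.63, limma adjusted p = 0.00814). CXCR4, a chemokine receptor, had 17.6 ± 0.519 FPKM in corilagin and 26.4 ± 1.94 FPKM in DMSO (-0.56, limma adjusted p = 0.00771). These are transcript levels of the substrates and do not measure phosphorylation. Of the called genes in these lists, MYC and CDKN1A stayed called without any 1 library. USP18 and CXCR4 lost the call without corilagin replicate 1 or 2, and FOXO3 without any 1 corilagin library. IL2RB and CSF2RA stayed called only without DMSO replicate 1 or 3. FLT3, IL3RA, CSF3R, JAK1, STAT2, ELOB, CCND3, CDC25A and LTB stayed called only without DMSO replicate 3.

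**Figure D5:**
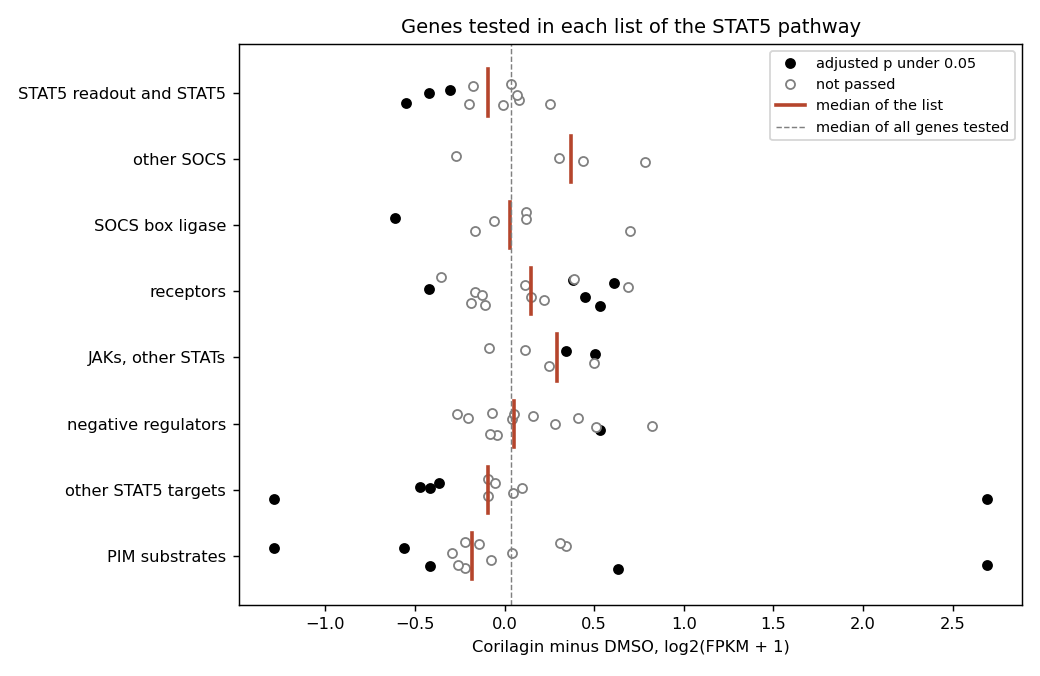
Corilagin minus DMSO in log2(FPKM + 1) (x axis) for every tested gene (points; filled, adjusted p under 0.05) of each list (y axis), with the list's median (red bar) and the median of all genes tested, 0.03 (dashed). MYC (-1.28) and CDKN1A (2.69) lie farthest out and each appears in 2 lists; the median is 0.29 for JAKs and other STATs and -0.09 for the 10 members.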

How the data were processed

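Per the labels' protocols, poly(A) RNA was read as paired ends on an Illumina instrument. fastp 0.22.0, HISAT2 2.1.0, HTSeq 0.9.1, DESeq 1.38.3 and GRCh38 appear, with no settings, in the submitters' processing notes. The authors deposited 1 table of FPKM values for 20036 Ensembl gene identifiers, of which 20011 were matched to a symbol.

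Groups were compared on log2(FPKM + 1) with limma 3.58.1 (R 4.3.3), using a trended 2-sided eBayes fit without covariates. Genes averaging at least 1 FPKM entered, 9868 in all, and p-values were adjusted by Benjamini-Hochberg over all of them (threshold 0.05). Log2 differences are on this scale and understate changes of low genes, while ratios are of mean FPKM. Shares were compared by exact permutation over libraries. Each FPKM value was a multiple of what 1 fragment is worth, so fragments were recovered for all 15921 genes above 0, with totals inferred from the FPKM themselves, and tested with limma-voom as an alternative. The GC trend of each library was removed with a natural spline of GC content (5 degrees of freedom), fitted to each gene's deviation from its mean, with GC taken from the longest GENCODE transcript. The code was tested on simulated data.

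Members, lists, tests and alternatives were chosen with earlier results of these data known. The text names all members, up to 3 rises and 3 falls per list by size, and FLT3, JAK2, IL2RG, IL6ST, OSMR, PTPN6, LIF and STAT3 always. IL3RA and LTB, called genes beyond that rule, and list genes named beside small counts were chosen after their values were seen. Results for 1 further gene of the JAK and STAT list are not reported here, and it was left out of that list's counts.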

Additional observations from a re-analysis of the deposited data

How the results depend on the processing

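As deposited, 1171 genes were higher and 1331 lower. With a minimum mean of 5 FPKM 713 were higher, with the GC trend removed 2109 were higher and 2269 lower, and against DMSO replicate 3 alone 1929 were higher. Leaving out 1 library gave 125 to 4024 higher and 175 to 3595 lower genes, most without DMSO replicate 3 and fewest without a corilagin library, in fits with fewer libraries. Equal sums per library moved the median of all genes by 0.10 (log2) and the share of calls that were higher to 60.5%, against 46.8% as deposited.

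Of the members, 0 were higher and 3 lower. The number higher was 1 with equal sums per library, 1 with quantile normalization, 3 with the GC trend removed, 3 against DMSO replicate 3 alone and 0 to 1 without any 1 library. Of all genes, 1620 were higher with equal sums, 1028 with quantile normalization, 2109 with the GC trend removed and 125 to 4024 without any 1 library. The number of members lower was 1 with no filter on low values, beside 1026 of all genes. It was 0 to 5 without any 1 library, beside 175 to 3595 of all genes. Members above DMSO without overlap numbered 1, but 4 with the GC trend removed (27.3% of all genes), 5 against DMSO replicate 3 alone (41.1%) and 1 to 2 without any 1 library, and those below 3 to 6 without any 1 library. Both leave-one-out counts were highest without DMSO replicate 3, where 44.1% of all genes lay above DMSO without overlap and 40.3% below.

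Signs turned for CISH (0.10 with equal sums, 0.15 with the GC trend removed, with or without the replicate block, 0.17 against DMSO replicate 3 alone, and -0.10 to 0.050 without any 1 library), SOCS1 (-0.035 with quantile normalization, -0.037 to 0.18 without any 1 library), SOCS2 (-0.0054 with median-of-ratios scaling, -0.059 with quantile normalization, -0.10 against DMSO replicate 3 alone, -0.021 to 0.10 without any 1 library) and PIM2 (-0.081 to 0.17 without any 1 library). Against DMSO replicate 3 alone they also turned for STAT5A (0.051), JAK2 (-0.16) and PTPN6 (0.00040). The difference in the CISH share ran from -0.22 to 2.67 percentage points, in the STAT5A share from -0.19 to 0.91, and in the PIM1 share from 7.17 to 8.84, without any 1 library. The STAT5A share differed by 2.15 points with the GC trend removed. The cause of these shifts was not tested.

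Each corilagin replicate deviated most like the DMSO replicate of its own number (r = 0.28, 0.0787 and 0.339 for replicates 1 to 3). DMSO replicate 2, however, correlated best with corilagin replicate 1 (0.279). Deviations within a group sum to 0, so these values cannot settle whether the numbers pair the libraries. With a replicate block 1547 genes were higher and 1330 lower, with 0 members higher and 2 lower (SOCS3 at limma adjusted p = 0.052). The replicate block with the GC trend removed gave 2105 higher and 2209 lower genes, and 2 members higher, PIM1 and SOCS1 (CISH at 0.0881). SOCS1, with 54 to 95 fragments per library, is the member whose depth limits precision most.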
